A study of Mus musculus with 9 samples.

Results

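Spinal cord injured 7 days earlier was compared with uninjured cord across the long noncoding RNAs that the study counted, taking all 3 control libraries and all 3 injury libraries of the 9 in the series. The material was total RNA from whole spinal cord of wild-type C57BL/6 mice aged 7 to 9 weeks. Control samples are labelled as uninjured, whereas the series design calls them sham, so whether these animals were operated on is not settled here. Injury samples are labelled with a spinal cord injury alone, and how it was made is not given in the labels. The remaining 3 libraries came from injured cord of animals given hyperbaric oxygen (HBO). They entered the low-count filter, the scaling and the estimate of spread, but not the comparison itself. The counts of 69547 transcripts were summed by Ensembl gene name into 67924 features, of which 5113 carry an Ensembl name. A filter on low counts left 26602 features and 2237 named genes for testing, and 64 of the 5113 names are of a protein-coding type in the GENCODE M21 annotation. The genome was also divided into 100 kb windows, in which the counts of all features were summed, and 10345 of 14746 windows with any feature were tested. Nothing states that the 3 libraries of a group came from separate animals, so every p-value reflects only how far these libraries lay apart, and that spread may be technical.

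Crush or contusion of the cord kills neurons and their glia, opens the vessels, and draws in blood-borne macrophages that join the resident microglia. Fibroblasts and pericytes then lay down a collagen-rich scar that astrocytes wall off. Long noncoding RNAs are transcribed from promoters of their own, from the opposite strand of coding genes, or from within coding introns. Some serve as precursors of microRNAs or small nucleolar RNAs, and many are found in few cell types.

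Library depth was 2313069 to 2869551 listed counts in control and 2765536 to 3148744 in injury, which was 18.6% to 19.5% of the library totals recovered from the deposited FPKM values. The coding markers of the tissue were not measured, so the cord was read through the noncoding features lying within 50 kb of marker genes. Around neuronal genes these features summed to between 3101 and 3617 CPM in control and between 2219 and 2534 CPM in injury. Around genes of fibroblasts and scar the sums were 288 to 385 CPM and 2674 to 3953 CPM, and around genes of microglia and macrophages 598 to 727 CPM and 1230 to 1716 CPM. Cell cycle genes gave 562 to 654 CPM and 923 to 1138 CPM. Endothelial and pericyte genes gave 742 to 798 CPM and 877 to 1118 CPM, and genes of lymphocytes and neutrophils 187 to 208 CPM and 217 to 246 CPM, both higher in every injury library. Around genes of oligodendrocytes, astrocytes, Schwann cells, ependyma and skeletal muscle the summed levels of both groups overlapped. In whole tissue, fewer cells of a type and less RNA per cell cannot be told apart, and the part that changes in cell types play in the results below was not tested.

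With TMM scaling more named noncoding genes rose in injured cord than fell, and with library totals from FPKM the reverse held. In edgeR's quasi-likelihood fit, with p adjusted over all features after Benjamini and Hochberg, 116 of the 2237 named genes rose (5.19%) and 38 fell (1.7%), 154 in all, which is 6.88% of those tested. Over all 26602 features 965 rose (3.63%) and 646 fell (2.43%), 6.06% together. The median log2 change was 1.51 among named genes that rose and -1.02 among those that fell, and 91 and 20 of them changed at least 2-fold. In none of the 154 did the injury libraries overlap the control libraries in CPM, which are counts put on one scaled total per library. Of all named genes tested, 35.3% did not overlap, 20.5% with injury above and 14.8% with injury below. With library totals recovered from FPKM the median log2 change over all features was -0.21, against 0.01 with TMM, and 79 named genes rose and 97 fell, while each of the 154 kept its direction. Of the 154, 116 also passed with those totals. Xist, Trp53cor1, Dubr, Gm37033, Gm9581, Gm37352 and 5031425E22Rik, described below as risen, were among those that did not.

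Most of the changed names belong to the class that Ensembl calls TEC, single loci known from cDNA that still await experimental proof. That class also held 1130 of the 2237 named genes tested. Of these 67 rose and 23 fell, which is 7.96%, near the 6.88% over all named genes. Of 312 lincRNAs, which lie between coding genes, 20 rose and 9 fell (9.29%), and of 288 antisense genes 12 rose and 3 fell (5.21%). Of 158 sense-intronic genes 4 rose and 0 fell by edgeR (2.53%). By position, 80 of 1120 genes inside coding introns changed (7.14%, with 61 higher and 19 lower). The same held for 46 of 554 intergenic genes (8.30%, 35 and 11) and 28 of 563 genes that touch a coding exon (4.97%, 20 and 8). Whether reads were assigned by strand is not given in the sources used here, so for genes inside introns or on coding exons the noncoding RNA was not separated from RNA of the coding gene.

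Beyond H19 and Dnm3os, which the field knows well, the genes with the largest increases included some inside the collagen genes Col1a2 and Col5a2 and at Bach2, Anpep and Spp1. Genes named for the largest changes or highest levels, here and below, were taken only from those whose groups did not overlap. For them such separation was fixed by the selection. RP23-56M2.7 (chromosome 6, 4506087 to 4507878, GRCm38), inside an intron of the type I collagen gene Col1a2, had 2.27, 4.37 and 5.09 CPM in control replicates 1, 2 and 3 and 98.2, 95.6 and 43.2 CPM in injury replicates 1, 2 and 3. Gm38211 (chromosome 1, 45485836 to 45493052), inside an intron of the fibrillar collagen gene Col5a2, had 3.79, 3.57 and 11.6 CPM in control and 83.8, 70.1 and 56.1 CPM in injury. In both genes every injury library lay above every control library, and injury replicate 3 was the lowest of the injured. The log2 changes were 4.32 (SE 0.46, adjusted p = 0.00970) and 3.45 (SE 0.44, adjusted p = 0.0147). Inside an intron of the mesenchymal homeobox gene Prrx1, Gm37644 rose from 5.14 ± 1.30 to 20.98 ± 8.52 CPM (SD, n = 3), a log2 change of 2.01 (SE 0.44). Its intronic neighbour Gm26523 rose from 3.401 ± 0.523 to 10.99 ± 2.85 CPM.

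Bach2os (chromosome 4, 32559680 to 32571708) runs across an exon of Bach2, a transcription repressor of lymphocytes. It had 0, 0 and 0.727 CPM in control and 23.9, 7.71 and 11.1 CPM in injury, a log2 change of 5.57 (SE 1.24, adjusted p = 0.0386). RP23-207N2.3 (chromosome 7, 79830593 to 79831871), inside an intron of the myeloid and stromal aminopeptidase gene Anpep, had 0.379, 0.397 and 1.45 CPM in control and 9.10, 10.8 and 8.86 CPM in injury. The injury libraries of RP23-207N2.3 were close to one another and all above control, with a log2 change of 3.58 (SE 0.68, adjusted p = 0.0275). Gm42793 (chromosome 5, 104435121 to 104436372) lies on an exon of Spp1, the gene of the macrophage product osteopontin. Its control libraries held 6.43, 5.56 and 5.09 CPM and its injury libraries 84.5, 32.8 and 28.0 CPM, so that injury replicate 1 stood well above replicates 2 and 3, and the log2 change was 3.08 (SE 0.51, adjusted p = 0.0225).

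For 2 named genes no control library held a single count. RP24-226D9.3 (chromosome 6, 89269511 to 89285725, intergenic, nearest coding gene the semaphorin receptor Plxna1) reached 2.65, 6.55 and 2.58 CPM with injury, a rise of at least 10.3-fold. RP24-88B16.2 (chromosome 6, 100791829 to 100793912, inside an intron of the xylosyltransferase gene Gxylt2) reached 4.17, 5.01 and 0.738 CPM with injury, a rise of at least 8.63-fold, and injury replicate 3 was close to the control level. Each bound puts 3 counts in place of 0 for the control group as a whole and covers counting error only. Intergenic AI427809 (chromosome 4, 53261356 to 53270232, 101461 bp from the cholesterol exporter gene Abca1) rose from 1.29 ± 0.947 to 21.02 ± 9.41 CPM, a log2 change of 3.996 (SE 0.55, adjusted p = 0.0156). Both 9630028B13Rik, 997 bp from the tRNA synthetase gene Eprs, and intergenic Gm28187 on chromosome 1 stayed under 2 CPM in every control library. They reached 3.85 to 11.4 CPM and 5.78 to 9.60 CPM in injury, with log2 changes of 3.64 (SE 0.91, adjusted p = 0.0495) and 2.92 (SE 0.61, adjusted p = 0.0339). RP23-380L19.3, near Pon3, had the largest log2 change of any named gene that passed, 9.82.

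**Figure D1:**
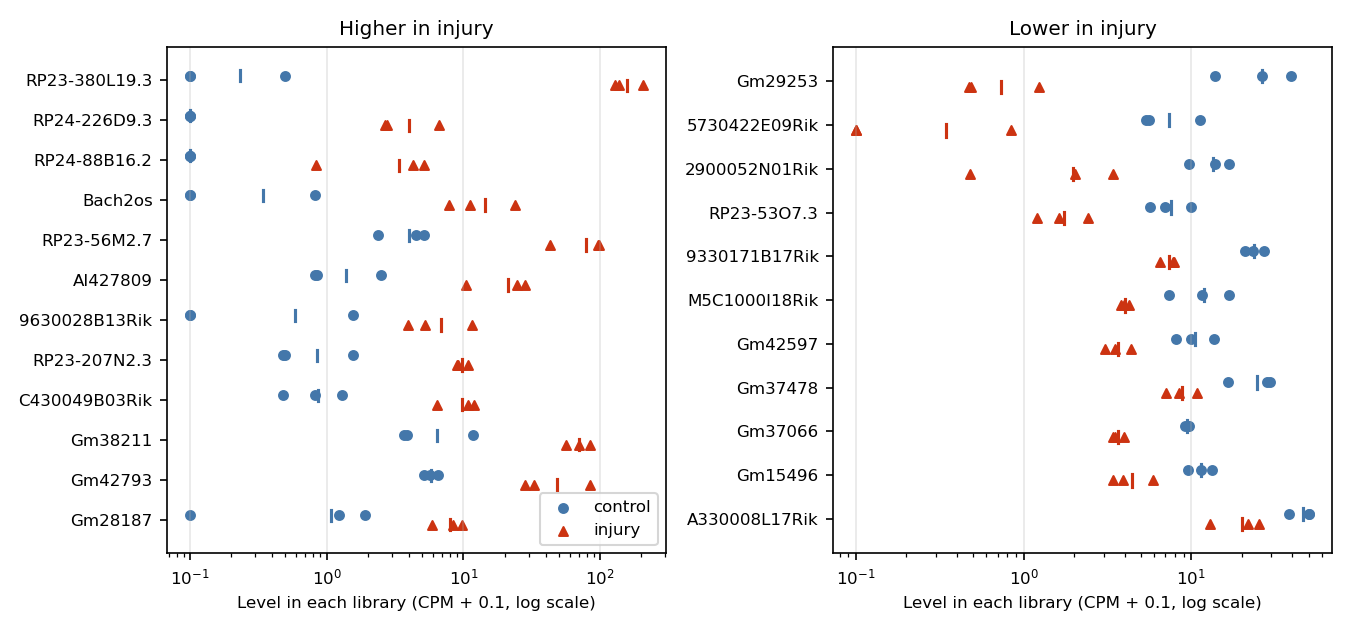
Levels of the named genes with the largest increases and decreases that the naming rule selects and that are reported here, as CPM + 0.1 on a log axis, with one point per library (circles control, triangles injury) and a bar at each group mean. Points at 0.1 are libraries with 0 counts, such as the 3 control libraries of RP24-226D9.3. In every gene shown the injury points lie wholly on one side of the control points, which was a condition of the selection.

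The next genes that rose were selected for a high mean level over both groups and not for the size of the change. AI506816 (chromosome 5, 23698296 to 23712667, intergenic) had 54.9, 71.1 and 105.8 CPM in control and 473.9, 341.8 and 263.5 CPM in injury, a log2 change of 2.22 (SE 0.29, adjusted p = 0.0151). Intergenic 1810058I24Rik (chromosome 6, 35252654 to 35263496), known to encode a mitochondrial micropeptide in mouse macrophages, rose from 109.6 ± 14.5 to 251.0 ± 49.3 CPM. Brip1os (chromosome 11, 86201370 to 86304443), which crosses exons of Ints2 and Med13, rose from 110.0 ± 8.42 to 249.9 ± 56.1 CPM. The log2 changes of 1810058I24Rik and Brip1os were 1.20 (SE 0.20, adjusted p = 0.0226) and 1.18 (SE 0.19, adjusted p = 0.0202). In neither did an injury library overlap control, as their selection required. Gpr137b-ps rose from 58.4 ± 5.69 to 165.9 ± 43.1 CPM, but it is a pseudogene, whose reads may be shared with the parent gene, and its value is uncertain. Gm36988, in an intron of the cell-polarity scaffold gene Frmd4a, rose from 80.2 ± 4.86 to 158.1 ± 2.99 CPM, with all 3 injury libraries between 154.7 and 159.9 CPM. Of the 7 tested named genes in introns of Frmd4a, Gm36988 alone was higher and 6 were lower, with a median log2 change of -0.60. Dubr, a regulator of muscle differentiation in mouse, rose from 71.7 ± 12.4 to 135.8 ± 13.01 CPM. Gm37033, in an intron of the inositol trisphosphate kinase gene Itpkb, rose by 0.73 (SE 0.18) on the log2 scale and Gm9581, which M21 types as coding, by 0.71 (SE 0.16).

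Lists of noncoding genes with known roles moved unevenly. The lists were chosen with earlier results of these data known. The filter can keep a gene counted in injury alone, so the medians describe only the tested members. Of 11 tested immune and macrophage RNAs, 3 rose, 0 fell and 8 did not pass. These 11 were the tested part of 22 such RNAs present, and their median log2 change was 1.65, beside 0.10 over all named genes tested. The 3 were AI506816, F630028O10Rik and 5031425E22Rik. The last had 59.0, 64.7 and 63.6 CPM in control and 99.7, 85.5 and 97.4 CPM in injury. Of 10 mesenchyme and matrix RNAs 4 rose and 0 fell, with a median of 0.83. Apart from H19 and Dnm3os these were Mir143hg, the host of smooth-muscle microRNAs, which rose from 19.5 ± 3.75 to 52.1 ± 9.13 CPM (log2 change 1.41, SE 0.21, adjusted p = 0.0158), and 3222401L13Rik, which rose from 22.6 ± 4.57 to 40.4 ± 3.21 CPM. Of 9 RNAs of the p53 response and growth arrest, 1 rose: Trp53cor1, a p53-induced RNA beside Cdkn1a, had 10.98, 13.1 and 8.72 CPM in control and 27.3, 35.4 and 17.7 CPM in injury. The median of that list was 0.68. Among 14 host RNAs of small nucleolar RNAs, Snhg18 rose from 7.78 ± 2.76 to 37.5 ± 10.9 CPM (log2 change 2.26, SE 0.32, adjusted p = 0.0157), Snhg14 fell, and 12 did not pass, with a median of 0.42.

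Other lists held few or no genes that passed. Of 4 X inactivation RNAs 1 rose, Xist, the RNA that coats the silent X, with 5546 to 6581 CPM in control and 8217 to 9211 CPM in injury, a log2 change of 0.54 (SE 0.13). By edgeR, 0 of 8 oligodendrocyte RNAs, 0 of 7 HOX cluster RNAs, 0 of 5 telomerase, nuclear and stress RNAs and 0 of 4 small structural RNAs passed, with medians of 0.21, -0.22, 0.47 and 0.92. Within these, Neat1, the scaffold of paraspeckles, had 2010, 2238 and 4465 CPM in control and 9938, 4302 and 6749 CPM in injury, and the groups overlapped (log2 change 1.27, SE 0.36, adjusted p = 0.0665). Gas5, which hosts small nucleolar RNAs and accumulates in growth arrest, measured 197.9 ± 12.6 CPM against 274.8 ± 22.7 CPM with injury (adjusted p = 0.0831). Rpph1, the RNA of ribonuclease P, had 3843 ± 1679 and 8437 ± 1995 CPM (adjusted p = 0.0839), and Rmrp, the RNA of the related mitochondrial RNA-processing enzyme, 1280 ± 725 and 4027 ± 1447 CPM (adjusted p = 0.0985). Hoxa11os had 9.14 ± 4.68 and 2.91 ± 1.36 CPM (adjusted p = 0.138) and Hoxaas3 4.19 ± 0.893 and 1.87 ± 1.68 CPM (adjusted p = 0.265). 9530059O14Rik, of the oligodendrocyte list, had 147.9 ± 36.2 and 178.4 ± 11.99 CPM.

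Several genes that rose lie over or beside microRNA hairpins on the same strand. The mature sequences of the microRNAs in or next to these genes are shown because they identify which small RNAs lie there and which of them share a seed. They are from RefSeq (GRCm38.p6), written 5′ to 3′ with the seed, bases 2 to 8, in capitals.
miR-223-3p: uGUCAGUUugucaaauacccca
miR-322-5p: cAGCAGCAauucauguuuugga
miR-16-5p: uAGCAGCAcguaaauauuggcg
miR-503-5p: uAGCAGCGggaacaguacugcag
miR-542-3p: uGUGACAGauugauaacugaaa
miR-23a-3p: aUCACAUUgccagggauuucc
miR-27a-3p: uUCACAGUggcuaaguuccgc
miR-24-3p: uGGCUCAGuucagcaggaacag
The seeds of miR-322-5p and miR-16-5p are identical, and that of miR-503-5p differs from them in its last base only. Mature microRNAs were not measured, so none of the values below is a microRNA level.

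The hairpin of miR-223, a microRNA of granulocytes and macrophages, lies inside F630028O10Rik (chromosome X, 96239926 to 96243636). F630028O10Rik had 26.9, 7.94 and 25.1 CPM in control and 118.3, 77.1 and 77.9 CPM in injury, all above control, a log2 change of 2.18 (SE 0.51, adjusted p = 0.0436). C430049B03Rik (chromosome X, 53055046 to 53057190) ends 719 bp from miR-322-5p and 997 bp from miR-503-5p, members of an X-linked cluster that restrains the cell cycle. It had 0.379, 1.19 and 0.727 CPM in control and 10.6, 11.9 and 6.27 CPM in injury, a log2 change of 3.58 (SE 0.51, adjusted p = 0.0157). Gm27010 (chromosome 14, 61625926 to 61627337), chosen after its values were seen, lies 4599 bp from miR-16-5p. Its control libraries held 6.43, 4.76 and 6.54 CPM and its injury libraries 16.3, 16.6 and 21.04 CPM, with no overlap and a log2 change of 1.59 (SE 0.25, adjusted p = 0.0203). The hairpin of miR-16 itself lies inside Dleu2, which spans Gm27010 on the same strand. Dleu2 did not pass by edgeR (log2 change 0.76, SE 0.30, adjusted p = 0.142). Gm37352 (chromosome 8, 84200869 to 84203049), likewise chosen afterwards, lies 5514 bp before miR-23a-3p, whose cluster also holds miR-27a and miR-24-2. It rose from 42.4 ± 9.22 to 98.0 ± 21.1 CPM, a log2 change of 1.21 (SE 0.30, adjusted p = 0.0490). Over all 68 tested named genes with a hairpin inside them or within 10 kb on the same strand, 8 rose and 2 fell, with a median log2 change of 0.15.

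The largest decrease among the named genes that passed was that of Gm29253 (chromosome 1, 75171731 to 75185146), which crosses exons of the porphyrin transporter gene Abcb6 and the autophagy gene Atg9a. It had 26.1, 39.3 and 13.8 CPM in control and 1.14, 0.385 and 0.369 CPM in injury. All 3 injury libraries were near the limit of counting, and the log2 change was -5.28 (SE 0.82, adjusted p = 0.0197). The log2 change of 5730422E09Rik (chromosome 5, 149119565 to 149184063), across an exon of the chromatin protein gene Hmgb1, was -4.61 (SE 0.93, adjusted p = 0.0318), from 7.29 ± 3.32 to 0.246 ± 0.426 CPM. Intergenic 2900052N01Rik (chromosome 9, 46913493 to 46927366) had 16.7, 9.53 and 13.8 CPM in control and 0.379, 1.93 and 3.32 CPM in injury, a log2 change of -2.79 (SE 0.68, adjusted p = 0.0473). RP23-53O7.3, 1858 bp from the interferon-induced nuclease gene Isg20, fell from 7.44 ± 2.19 to 1.65 ± 0.613 CPM. Further genes that fell touch coding exons: 9330171B17Rik, opposite the hedgehog-pathway kinesin gene Kif7, fell from 23.5 ± 3.15 to 7.30 ± 0.741 CPM, M5C1000I18Rik at C2cd4b from 11.8 ± 4.70 to 3.90 ± 0.244 CPM, and Gm15496 at Slc7a14 from 11.3 ± 1.82 to 4.30 ± 1.30 CPM.

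A host RNA of a neuronal microRNA and an RNA beside Cdh8 were also lower. Mir124-2hg (chromosome 3, 17789921 to 17808970), a host of the neuronal microRNA miR-124, had 266.5, 239.0 and 249.7 CPM in control and 114.5, 143.0 and 139.9 CPM in injury. The groups were well apart, and the log2 change was -0.93 (SE 0.15, adjusted p = 0.0207). A330008L17Rik (chromosome 8, 99416642 to 99733438), 171 bp from the neuronal cadherin gene Cdh8, fell from 46.3 ± 7.05 to 19.9 ± 6.29 CPM, a log2 change of -1.22 (SE 0.29, adjusted p = 0.0439). Mir124-2hg and A330008L17Rik were the 2 of 17 tested neural development RNAs that fell, while 0 rose and the median of the list was -0.29. Gm37899 (chromosome 12, 109668869 to 109677585), in the imprinted Dlk1-Dio3 region downstream of Rian, fell from 392.6 ± 26.6 to 266.3 ± 12.7 CPM, a log2 change of -0.56 (SE 0.13, adjusted p = 0.0412). Of 10 imprinted RNAs 1 rose and 2 fell, with a median of -0.51. Gm10419, on an exon of Gm42517, fell from 192.8 ± 32.5 to 103.1 ± 24.3 CPM.

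Near marker genes of cell types, few named genes were measurable, and the counts over all features are given beside them. The limits given above for the choice of lists and for the filter hold here too. Within 50 kb of fibroblast and scar genes, 3 of 5 named genes and 12 of 37 features rose and 0 fell, with a median log2 change of 1.53 over the features, beside 0.01 over all 26602. Around genes of microglia and macrophages 2 of 4 named genes rose, Gm42793 at Spp1 and A130071D04Rik. The latter lies in an intron of Ptprc, the gene of the leukocyte antigen CD45, and rose from 19.2 ± 3.56 to 55.2 ± 8.06 CPM (log2 change 1.52, SE 0.28, adjusted p = 0.0264). Of 39 features there 11 rose and 1 fell, with a median of 0.59. Around neuronal genes 0 of 7 named genes passed by edgeR, while of 100 features 8 fell and 0 rose, with a median of -0.62. Features around astrocyte genes had a median of 0.56 (3 of 36 rose), those around endothelial and pericyte genes 0.81 (2 of 26 rose), those around cell cycle genes 0.31 (3 of 42 rose) and those around oligodendrocyte genes 0.12 (1 of 69 fell). Around Schwann cell genes 2 of 37 features rose and 1 fell, with a median of 0.29. No feature passed by edgeR around genes of lymphocytes and neutrophils (0 of 13), skeletal muscle (0 of 23) or ependyma (0 of 17).

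For some coding genes, all named genes inside their introns lay on the same side of 0. Of 80 coding genes with at least 3 tested named genes in their introns, all of those genes were lower in injury for 18 and all were higher for 26, counting direction alone. With only 3 genes in a host such agreement can arise readily, and the rate expected without any change was not computed. Some of these hosts had medians near 0, as Stag1 (0.06) and Lrig2 (-0.05), each with 3 tested named genes. Kcnip4, which encodes a subunit that modulates A-type potassium channels, held 24 such genes, all 24 of them lower, and 5 fell. Their median log2 change was -0.90. Summed, they had 1199, 1128 and 1006 CPM in control and 432, 720 and 657 CPM in injury. Gm42770 (chromosome 5, 49124587 to 49128741) was the most abundant of the 5, with 117.3, 117.5 and 97.8 CPM in control and 39.4, 62.4 and 62.4 CPM in injury (log2 change -1.02, SE 0.20, adjusted p = 0.0311). The other 4 were Gm42768, Gm10048, Gm43341 and Gm43648, with log2 changes between -0.97 and -1.14. These genes share a coding gene and possibly its transcript, so they are not independent measurements.

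Further coding genes held named genes that were all lower. In Cntnap2, a neurexin-family adhesion gene of axons, all 22 named genes were lower and 2 fell, RP24-133O13.2 and RP24-229C13.5, with log2 changes of -0.999 (SE 0.21) and -0.95 (SE 0.22). Their sum over the 22 went from 1009 ± 75.1 to 563.5 ± 96.5 CPM. In Adgrb3, a synaptic adhesion receptor gene, all 19 were lower and 2 fell, and the sum went from 1450 ± 168 to 973 ± 80.5 CPM. In Dpp10, a partner of A-type potassium channels, all 7 were lower. Gm37478 there had 28.0, 29.4 and 16.4 CPM in control and 8.34, 6.94 and 10.7 CPM in injury, and Gm37066 had 9.46, 9.53 and 9.09 CPM in control and 3.41, 3.85 and 3.32 CPM in injury. Neither overlapped, as their selection required, and the log2 changes were -1.497 (SE 0.30, adjusted p = 0.0309) and -1.40 (SE 0.33, adjusted p = 0.0441). All 8 in the synaptic adhesion gene Lrrtm4 and all 7 in the GABA-B receptor auxiliary gene Kctd8 were lower, with 1 that fell in each. Gm42597, in an intron of Zfp804b, fell from 10.4 ± 2.801 to 3.53 ± 0.652 CPM.

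In the opposite direction, all 4 named genes in introns of Fli1, an ETS transcription factor of blood and endothelial cells, rose. Gm37082 (chromosome 9, 32535251 to 32537177) had 21.95, 18.7 and 20.4 CPM in control and 77.3, 58.2 and 70.9 CPM in injury, a log2 change of 1.76 (SE 0.17, adjusted p = 0.00417). Gm38346, Gm37474 and Gm38292 rose by 1.44, 1.52 and 1.61. All 4 in Pdzrn3, a ubiquitin ligase gene active in vessels and muscle, rose too, by 1.75 to 2.23, and together they went from 28.1 ± 1.37 to 123.6 ± 33.4 CPM. All 3 in Tcf7l1, a repressor of the Wnt pathway, rose, by 1.40 to 2.41. The 9 in Maml3, a Notch coactivator gene, were all higher and 2 rose, and the 4 in Akap13, a gene of a kinase-anchoring protein, were all higher and 2 rose. Not every long gene held lower values. Of the 22 in Auts2, a gene of 1106 kb, 17 were higher and 5 lower and 0 passed by edgeR, with a sum of 616 ± 67.5 CPM in control and 697 ± 14.8 CPM in injury.

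**Figure D2:**
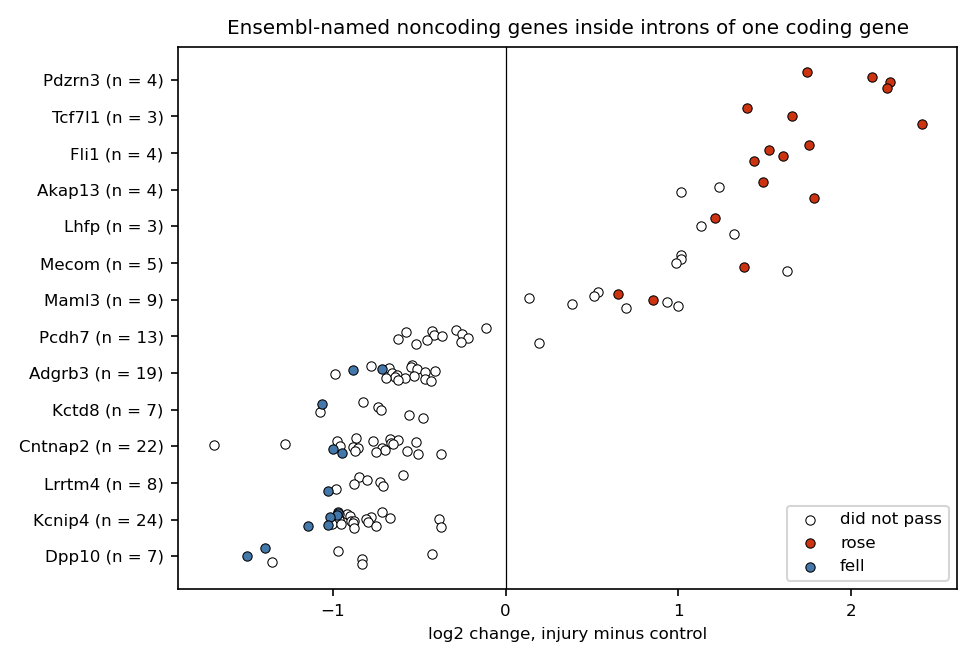
Log2 change, injury minus control, of every tested named gene inside introns of 14 coding genes picked after the values were seen, with one point per named gene and filled points for those that passed. All points lie on one side of 0 for each coding gene shown except Pcdh7, where 12 of 13 were lower.

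Across all 1096 named genes inside introns of a coding gene of known length, the median change was lower in the longest. In coding genes under 50 kb the median log2 change was 0.24 over 146 named genes, of which 8 rose and 0 fell. The medians were 0.25 for 382 genes in hosts of 50 to 200 kb (27 rose, 1 fell) and 0.04 for 333 in hosts of 200 to 500 kb (17 rose, 3 fell). In hosts over 500 kb the median was -0.46 over 235 genes in 56 hosts, 7 rose and 15 fell. Of those that fell, 5 lay in Kcnip4 and 2 each in Cntnap2, Adgrb3 and Dpp10. Genes that share a host are not independent, so the 235 are not separate observations of length. Over all features in such hosts, 39 of 3064 rose and 216 fell, with a median of -0.52. The median of the named genes in the longest hosts was -0.53, -0.35 and -0.36 in injury replicates 1, 2 and 3, as the difference from the control mean in log2(CPM + 1), and between -0.09 and 0.09 in the control libraries. With library totals from the FPKM values the 4 medians were 0.02, 0.03, -0.18 and -0.68, so that the sign of the third differed between scalings. The cell types that transcribe each host were not measured, so length and cell type cannot be told apart here.

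**Figure D3:**
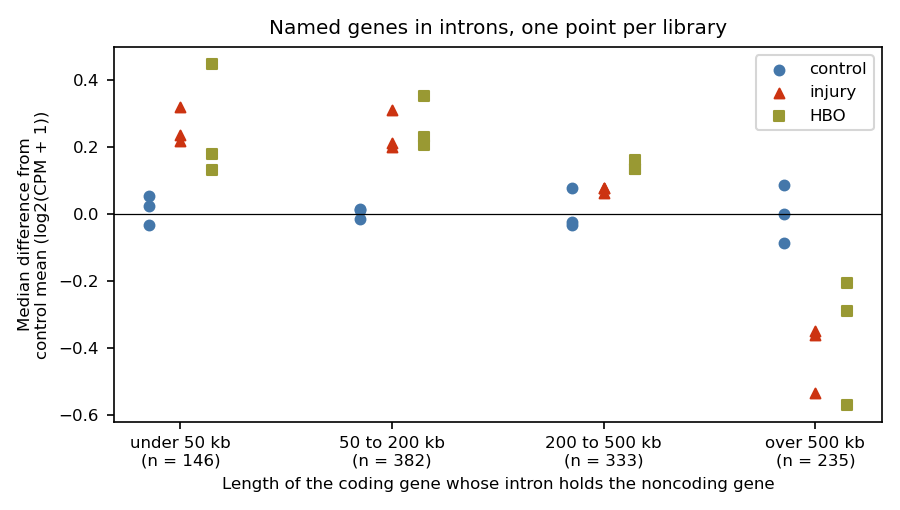
Median difference from the control mean, in log2(CPM + 1), of named genes inside introns, by length of the coding gene, with one point per library (circles control, triangles injury, squares HBO). In hosts over 500 kb the 3 injury libraries lie between -0.53 and -0.35, below all 3 control libraries, and in hosts under 50 kb they lie between 0.22 and 0.32, above them.

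Summed by neighbourhood, a larger share of the tested windows passed than of the tested features. Windows pool counts and were recovered more often in simulated counts, so the shares do not compare amounts of change. Of 10345 windows of 100 kb, 973 rose (9.41%) and 1081 fell (10.4%), together 19.9% of those tested. The groups did not overlap in 44.1% of windows, 24.8% with injury above and 19.3% below. Of the 2054 windows that passed, 1098 held no single feature that passed. Of the 154 named genes that passed, 132 lay in a window that passed in the same direction. The counts of each gene are part of its own window, so this agreement is in part built in. With library totals from the FPKM values 665 windows rose and 1429 fell. The 6 windows each way with the smallest p among those with at least 3 tested features are described next, and all 12 also passed with any one of the 9 libraries left out.

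The window in Fli1 (chromosome 9, 32500000 to 32599999) had 91.2, 102.4 and 97.8 CPM in control and 339.7, 255.8 and 277.5 CPM in injury, a log2 change of 1.498 (SE 0.15, adjusted p = 0.00340), and all 4 of its tested features rose. The window at Prl2c3 (chromosome 13, 12700000 to 12799999) had 32.9, 38.1 and 46.5 CPM in control and 362.1, 224.6 and 197.8 CPM in injury, a log2 change of 2.65 (SE 0.26). Its 20 tested features were all higher and 12 rose, among them NONMMUT089272.1, NONMMUT089285.1 and NONMMUT089273.1, by 3.01, 2.95 and 2.57. None of the 20 carries an Ensembl name. Prl2c3 belongs to the proliferin family of near-identical placental hormone genes, and reads there may be split among copies, so the window is uncertain. The window in Pdzrn3 (chromosome 6, 101300000 to 101399999) had 25.4, 25.4 and 26.9 CPM in control and 144.1, 105.6 and 88.6 CPM in injury, and all 5 of its features rose, NONMMUT058256.2 by 3.52 (SE 0.43).

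The window at Mdfic (chromosome 6, 15800000 to 15899999), the gene of an inhibitor of MyoD-family factors, rose from 15.9 ± 5.62 to 101.4 ± 28.8 CPM, and all 3 of its features rose: NONMMUT055827.2 on a coding exon by 2.57, intergenic NONMMUT121848.1 by 4.03 and the named RP23-318B18.1 by 2.86. The window of AI506816 (chromosome 5, 23700000 to 23799999) rose from 100.97 ± 26.7 to 391.4 ± 109.9 CPM, and 1 of its 3 features rose, AI506816 itself. The window at Agtrap and Draxin (chromosome 4, 148000000 to 148099999) rose by 2.26 (SE 0.27), but its parts did not move together. NONMMUT050583.2, on an exon of Agtrap, the gene of an angiotensin receptor partner, had 1.51, 32.2 and 1.82 CPM in control and 146.0, 119.1 and 107.4 CPM in injury (adjusted p = 0.0605). NONMMUT050586.2, on an exon of the axon-guidance gene Draxin, rose by 3.54, and Gm13054 on an exon of Nppa had 13.98 ± 6.61 and 5.55 ± 1.00 CPM (adjusted p = 0.0918).

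Among the windows that fell, that near Kcna4 (chromosome 2, 107300000 to 107399999), a voltage-gated potassium channel gene, had 204.8, 237.4 and 193.7 CPM in control and 97.8, 130.6 and 107.4 CPM in injury, a log2 change of -1.002 (SE 0.15, adjusted p = 0.00778). All 8 of its tested features were lower and 3 fell: NONMMUT107635.1, NONMMUT107636.1 and NONMMUT107638.1, by -1.42, -1.06 and -0.94 on the log2 scale. The window in Dpp10 (chromosome 1, 123300000 to 123399999) fell from 46.1 ± 9.28 to 18.5 ± 1.80 CPM, and 2 of its 3 features fell. In the window inside Mgat4c (chromosome 10, 102100000 to 102199999), an N-glycan branching enzyme gene, the level fell from 76.1 ± 6.68 to 37.3 ± 7.12 CPM, and NONMMUT007147.2 and NONMMUT007149.2 fell. The window at the ubiquitin ligase gene March11 (chromosome 15, 26400000 to 26499999) fell from 157.7 ± 6.02 to 77.4 ± 7.56 CPM. Of its 11 tested features 9 were lower and 0 passed singly by edgeR, so the call rests on their sum.

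At the neurofilament genes Nefm and Nefl (chromosome 14, 68000000 to 68099999) the window had 47.7, 47.6 and 43.3 CPM in control and 18.2, 23.1 and 20.3 CPM in injury. Its log2 change was -1.25 (SE 0.18), while 0 of its 3 features passed singly by edgeR. NONMMUT021390.2 there had 25.4, 22.6 and 21.4 CPM in control and 7.20, 7.71 and 0 CPM in injury (adjusted p = 0.0874). The window at Ide and March5 (chromosome 19, 37200000 to 37299999) fell by 1.31 on the log2 scale. It rested on 1 feature, NONMMUT034612.2, on an exon of the insulin-degrading enzyme gene Ide, and without features on coding exons its log2 change was -0.08. In the same window MSTRG.28078.1, in an intron of March5, measured 17.8 ± 2.52 CPM against 30.2 ± 4.16 CPM with injury (adjusted p = 0.160).

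**Figure D4:**
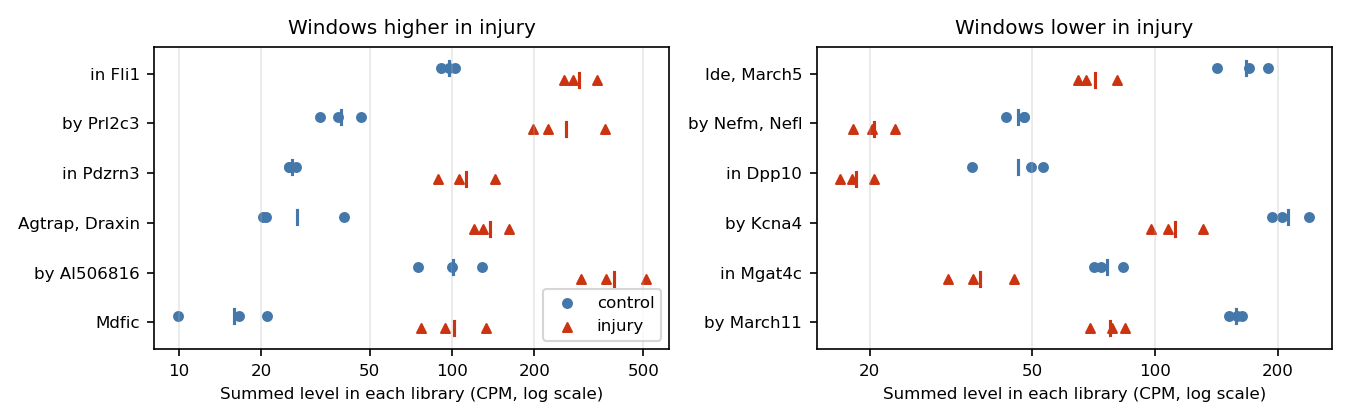
Summed level, in CPM on a log axis, of the 6 windows that rose and the 6 that fell by the smallest p, labelled by the coding gene in or beside them, with one point per library (circles control, triangles injury) and a bar at each group mean. In each of the 12 windows the 3 injury points lie apart from the 3 control points, for example 25.4 to 26.9 CPM against 88.6 to 144.1 CPM in Pdzrn3.

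Some adjacent windows passed in the same direction. The 973 windows that rose formed 788 runs and the 1081 that fell formed 743, where a lone window counts as a run. Runs of at least 4 adjacent windows, counted after the values were seen and given as a description, numbered 10 among those that rose, with 50 windows in all, and 34 among those that fell, with 207 windows. The longest run that rose spanned 8 windows around Zic1 and Zic4 (chromosome 9, 91000000 to 91799999), zinc-finger genes of the dorsal neural tube and of the meninges. It summed to 103.3, 133.8 and 127.6 CPM in control and 771.9, 516.7 and 458.7 CPM in injury, and all 39 tested features in it were higher, of which 13 rose. Of its 3 named genes Gm37040 rose, with 1.14, 1.99 and 4.73 CPM in control and 13.3, 8.86 and 13.7 CPM in injury, while Gm37457 and A730094K22Rik did not pass. Further runs that rose lay wholly or partly in Sash1, Foxp1, Dock2, Lpp, Frmd4a, Fndc3b, Stard13, Akap13 and Adam12. The run at Frmd4a held 1 tested named gene, Gm36988, while 6 others in introns of Frmd4a were lower. The Dock2 run, in a gene of leukocyte migration, went from 35.6, 51.6 and 55.2 CPM to 224.4, 144.1 and 155.4 CPM, and in Adam12, a metalloprotease gene of mesenchyme, RP23-52F4.1 rose from 12.3 ± 2.44 to 52.2 ± 16.002 CPM.

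The longest run that fell spanned 13 windows, nearly all inside Lsamp (chromosome 16, 39900000 to 41199999), a limbic and neuronal adhesion gene, and summed to 10541, 10411 and 9295 CPM in control and 4256, 5945 and 5842 CPM in injury. Of its 258 tested features 252 were lower and 49 fell, and none carries an Ensembl name. A run of 11 windows lay inside Rbfox1, a neuronal splicing factor gene. One of 10 windows on chromosome 1 (124000000 to 124999999) began within Dpp10 and lay mostly in the sequence beyond it, with 219 of 219 features lower and 34 that fell. One of 9 windows on chromosome 16 (74300000 to 75199999) likewise began within Robo2, an axon-guidance receptor gene, and lay mostly outside it, with 260 of 265 features lower and 51 that fell. A run of 10 windows on chromosome 8 (49800000 to 50799999) held no coding gene, and 124 of its 128 features were lower. Around Mir124-2hg, too, 8 adjacent windows without a coding gene (chromosome 3, 17100000 to 17899999) fell, from 967, 919 and 815 CPM to 385, 521 and 506 CPM. Other runs that fell lay wholly or partly in Nrg1, Pcdh9, Kcnip4, Lrrtm4, Fgf12, Robo1, Ppargc1a, Cntnap2, Ube3a and Klhl29, among others.

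How many named genes passed depended on single libraries. Without control replicates 1, 2 and 3 the count was 4, 6 and 52, and without injury replicates 1, 2 and 3 it was 17, 28 and 80. Injury replicate 1 was the most extreme of the injured libraries for 81 of the 116 named genes that rose and for 20 of the 38 that fell. For windows the count without 1 control or injury library was between 551 and 1663. All 154 named genes and all 2054 windows kept their direction without any one library. A set of 75 features joined those that passed under the naming rule with the named genes that passed over or beside microRNA hairpins. Of these 75, 5 passed with any one of the 9 libraries left out: Gm37082, RP23-56M2.7, RP23-380L19.3, NONMMUT034612.2 and NONMMUT058256.2.

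**Figure D5:**
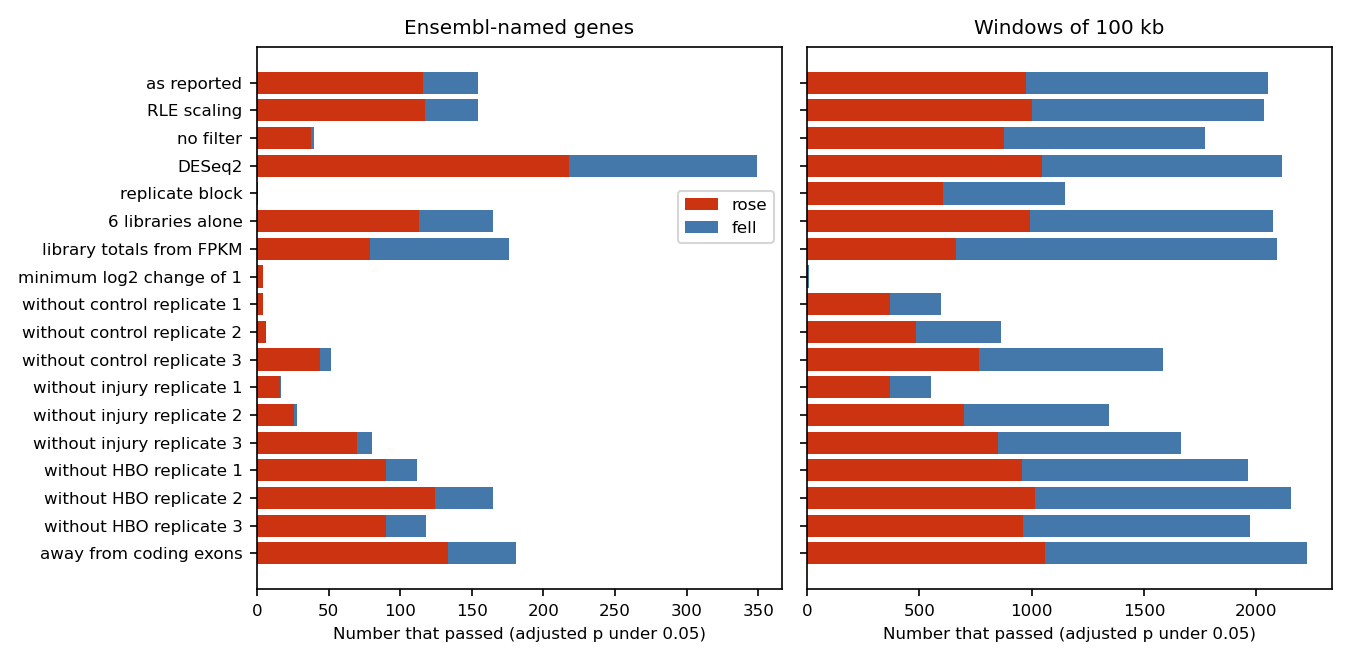
Number of named genes and of windows that passed (adjusted p under 0.05) as reported and under each alternative, as bars with those that rose in red and those that fell in blue. The named genes range from 1 with the replicate block to 349 by DESeq2, and the windows from 6 with a minimum log2 change of 1 to 2226 without features on coding exons.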

How the data were processed

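Total RNA of spinal cord was sequenced in 9 libraries, of which the 3 control and 3 injury libraries were compared. For every long noncoding transcript the authors deposited its count and its FPKM, per the file headers. Reads were processed with HISAT2 on GRCm38, per the submitters' processing notes; its version, the program that counted reads, strand handling and the treatment of multiply mapped reads are, in the sources used here, not given. The counts as deposited are raw whole numbers, and the FPKM values served only to recover library totals. Deposited coordinates were kept, and 97.1% of 6656 matched Ensembl transcripts had the same position in GENCODE M21 (GRCm38).

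Counts were summed by Ensembl name, and again in 100 kb windows by the midpoint of each feature. All 9 libraries entered one fit by group in edgeR 4.0.16 under R 4.3.3, with TMM scaling, filterByExpr (minimum count 10), glmQLFit and glmQLFTest. A p under 0.05, adjusted over all features or windows after Benjamini and Hochberg, was required. The filter keeps a feature that is counted in 1 group alone, so medians and counts over tested members are descriptions. CPM values use TMM-scaled totals and carry the SD over 3 libraries. Context was read from whole spans without regard to strand. The fit was tested on simulated counts: of 26602 features it recovered 0 of 100 changed 2-fold and 17 of 100 changed 4-fold, with 2 false among 19 calls, and of 10345 windows 17 and 75 of 100, with 6 false among 98 calls. Replicates differed beyond sampling noise, with chi-square values of 7.93 to 12.8 per degree of freedom.

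The members, lists and naming rule were chosen with earlier results of these data known. Named genes were, among called genes of at least 2 CPM in the higher group whose groups did not overlap, the 12 largest changes and the 8 highest levels each way, leaving out the best known; up to 3 called members each way per noncoding list and 2 per neighbour list, or, for a noncoding list with none, its 2 members of smallest p; and 6 windows each way with up to 3 features each. Not everything selected by this rule is given in the text. Other settings tried were DESeq2 1.42.0, no filter, RLE scaling, the replicate number as a block, the 6 libraries alone, totals from FPKM, a minimum log2 change of 1, transcripts as listed, windows of 250 kb, features away from coding exons, and leaving out each library; leaving out each HBO library was added after the data were seen.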

Additional observations from a re-analysis of the deposited data

How the results depend on the processing

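No gene, feature or window that the naming rule selects and that passed changed direction under any alternative. The count of all features (1611) was 308 without the filter, 3903 by DESeq2, 19 with a minimum log2 change of 1 and between 34 and 1814 with one library left out. For named genes (154) the same settings gave 40, 349 and 4, and between 4 and 165. For windows (2054) a minimum log2 change of 1 left 6, and leaving out a library gave between 551 and 2156. RLE scaling, the 6 libraries alone, transcripts as listed, windows of 250 kb and features away from coding exons kept the counts within 1.5 times. With the 6 libraries alone, 149 of the 154 named genes could be refitted and 127 passed again. Without features on coding exons, 1760 of the 1799 windows that could be refitted kept their direction. With 200 features changed in simulated counts, 0 of 100 changed 2-fold were recovered, and 19 calls were made in all. In the data 1611 features passed, so the adjustment asked for a smaller p in the simulation than in the data. Its recovery therefore gives no rate for the data, where 91 of the 116 named genes that rose and 20 of the 38 that fell had changed at least 2-fold.

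With the replicate number as a block, 7 features, 1 named gene and 1147 windows passed. Same-numbered control and injury libraries did not deviate together (r = -0.05, -0.05 and -0.03), so the numbers are not taken to pair the libraries, and no library correlated best with its own number.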

Other observations

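AU020206 (chromosome 7, 75769038 to 75782099), at the end of the Akap13 run, was counted unevenly within groups. It had 114.3, 175.1 and 202.8 CPM in control replicates 1, 2 and 3, 564.5, 490.1 and 1.85 CPM in the injury replicates, and 0.776, 5.85 and 423.3 CPM in the HBO replicates. In injury against control its log2 change was 1.10 (SE 1.81, adjusted p = 0.736, edgeR). Gm26917 was similarly uneven in HBO, with 54655, 46565 and 42.0 CPM, where control had 35908 to 38512 CPM and injury 45848 to 74317 CPM. Reads of such features can be assigned to overlapping transcripts, which was not tested.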
